A study of Macaca mulatta with 20 samples.

Results

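The genes described were 10 enzymes and regulators of glycolysis, chosen by name: the hexokinases HK1, HK2 and HK3, glucose-6-phosphate isomerase GPI, the fructose-2,6-bisphosphate enzymes PFKFB3 and PFKFB4, aldolase ALDOA, phosphoglycerate kinase PGK1, enolase ENO1 and lactate dehydrogenase LDHA. The rule took a probe by its gene name and by detection above background on at least 5 arrays, and used no difference between groups. The 10 names themselves were chosen with earlier results of these data known. They were 10 of 15929 gene names with a tested probe. The microarray carried 13 probes for them, with 2 probes each for HK2, PFKFB3 and LDHA, out of 34127 probes in all. All 13 were well above background on at least 5 of the 20 arrays and were among the 19961 probes tested.

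The RNA came from whole blood of male rhesus macaques of Chinese origin that received 10 Gy of X-rays to the thorax only and no mitigating drug. Globin transcripts were depleted before labelling with Cy3, and each sample was hybridised to its own array of human 60-base probes. There were 4 groups of 5 arrays each, namely blood drawn before irradiation (Pre-irradiation) and at 3 times after it, labelled Day 2, Day 5, Day 30. The labels gave 8 animals for the study and no age for any sample. Per the methods, samples were paired by animal and 1 of them pooled RNA from a pair of animals, and which sample that was is not given in the sources used here. No unirradiated animals were sampled in parallel, so time in the study and irradiation cannot be told apart.

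Glycolysis splits glucose into pyruvate and yields ATP without oxygen. Hexokinases trap glucose in the cell as glucose-6-phosphate, and phosphofructokinase, the main control point further down, is switched on by fructose-2,6-bisphosphate. The PFKFB enzymes make and remove that activator, and PFKFB3 and PFKFB4 are known targets of the hypoxia-inducible factor HIF. In blood, mature red cells and neutrophils rely on glycolysis for most of their ATP, and HK3 is known mainly from myeloid cells.

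Gene levels were read from single human probes, so it matters which stretch of each transcript was measured. Most probes lay in 1 block of the human genome build hg19: HK1 at chr10:71161158-71161217, HK2 at chr2:75120331-75120390 with a second probe at chr2:75118359-75118418, GPI at chr19:34891174-34891233, PFKFB3 at chr10:6277062-6277121 and PFKFB4 at chr3:48555454-48555513. PGK1 lay at chrX:77381462-77381521, ENO1 at chr1:8924054-8924113 and LDHA at chr11:18428789-18428848. For HK3 (chr5:176310836-176311064, minus strand), ALDOA (chr16:30081324-30081470, plus strand) and the second PFKFB3 probe (chr10:6266166-6268203, plus strand) the 60 bases spanned 229, 147 and 2038 bases of hg19, so these 3 probes crossed an intron and read spliced RNA. The second LDHA probe was placed by the array's annotation at chr9:14921817-14921876 on the minus strand, not at the LDHA gene on chromosome 11, and its values are given as uncertain. The array's annotation did not say which exon or untranslated region a probe lay in. The sequences of these 4 probes are shown, from the array files and 5′ to 3′ in lower case, because their placement decides what they can report:
HK3: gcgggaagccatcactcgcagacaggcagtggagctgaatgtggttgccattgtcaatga
ALDOA: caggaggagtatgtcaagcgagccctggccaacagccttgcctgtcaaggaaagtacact
PFKFB3, second probe: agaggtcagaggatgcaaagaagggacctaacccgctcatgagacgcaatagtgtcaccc
LDHA, second probe: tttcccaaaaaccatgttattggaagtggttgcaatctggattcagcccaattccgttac

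Between 54.7% and 58.8% of spots were well above background on each array except Pre-irradiation replicate 1, with 50.9%, and Day 5 replicate 3, with 67.3%. Each of the 5 slides held 1 array of every group, and the position on the slide was the same for all arrays of a group, so position and group cannot be told apart. Of 68 blood-cell marker genes 60 were tested and 58 of these were above background on all 20 arrays, so the labelled tissue carried its defining transcripts. The array number, not read depth, limits precision here. Levels below are log2 signal relative to the 75th percentile of the array, and a level of 0 is that percentile. Levels of different probes are not compared with each other.

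None of the 10 genes passed the threshold (p under 0.005 and a false discovery rate under 10%) in any comparison. At Day 2, Day 5 and Day 30 the 13 probes gave 0 calls each, where 0.0601%, 0% and 0% of all probes tested were called. At p under 0.005 alone the members again gave 0 on each day, against 2.55%, 1.58% and 3.14% of all probes. At p under 0.05, 5 probes were higher at Day 2, 3 at Day 5 and 3 at Day 30, with none lower. At that level 8.47%, 7.35% and 7.43% of all probes were higher and 6.55%, 3.82% and 10.1% lower. They were HK2, HK3, the second PFKFB3 probe, PFKFB4 and ALDOA at Day 2, then HK3, the second PFKFB3 probe and PFKFB4 at Day 5, and HK2, the first PFKFB3 probe and PFKFB4 at Day 30. These counts used the replicate number as a block, since samples were paired by animal, and without the block they were 4, 0 and 1. PFKFB4 was the only single probe of the 13 with p under 0.05 on all 3 days, and PFKFB3 had 1 of its 2 probes under 0.05 on each day. On each day 10 of the 13 probes were higher than before irradiation, against 44.9%, 54.7% and 47.4% of all probes. With 1 probe per gene, that of the highest mean signal, 7 of the 10 genes were higher on each day. Among alternatives, 8 of the 13 probes were higher at Day 2 and at Day 30 with normexp. At Day 5, 8 were higher with quantile normalisation or median scaling, and at Day 30, 7 without replicate 1. Above the median of all probes lay 11, 8 and 10 of the 13 (6 at Day 2 with normexp). The lowest and highest values of each day overlapped those of Pre-irradiation for 13 of 13 probes, where 1.62%, 0.641% and 2.04% of all probes did not overlap. The 3 comparisons share their Pre-irradiation arrays. Since the 10 genes were chosen with earlier results known, their counts beside those of all probes are a description and not a test.

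**Figure D1:**
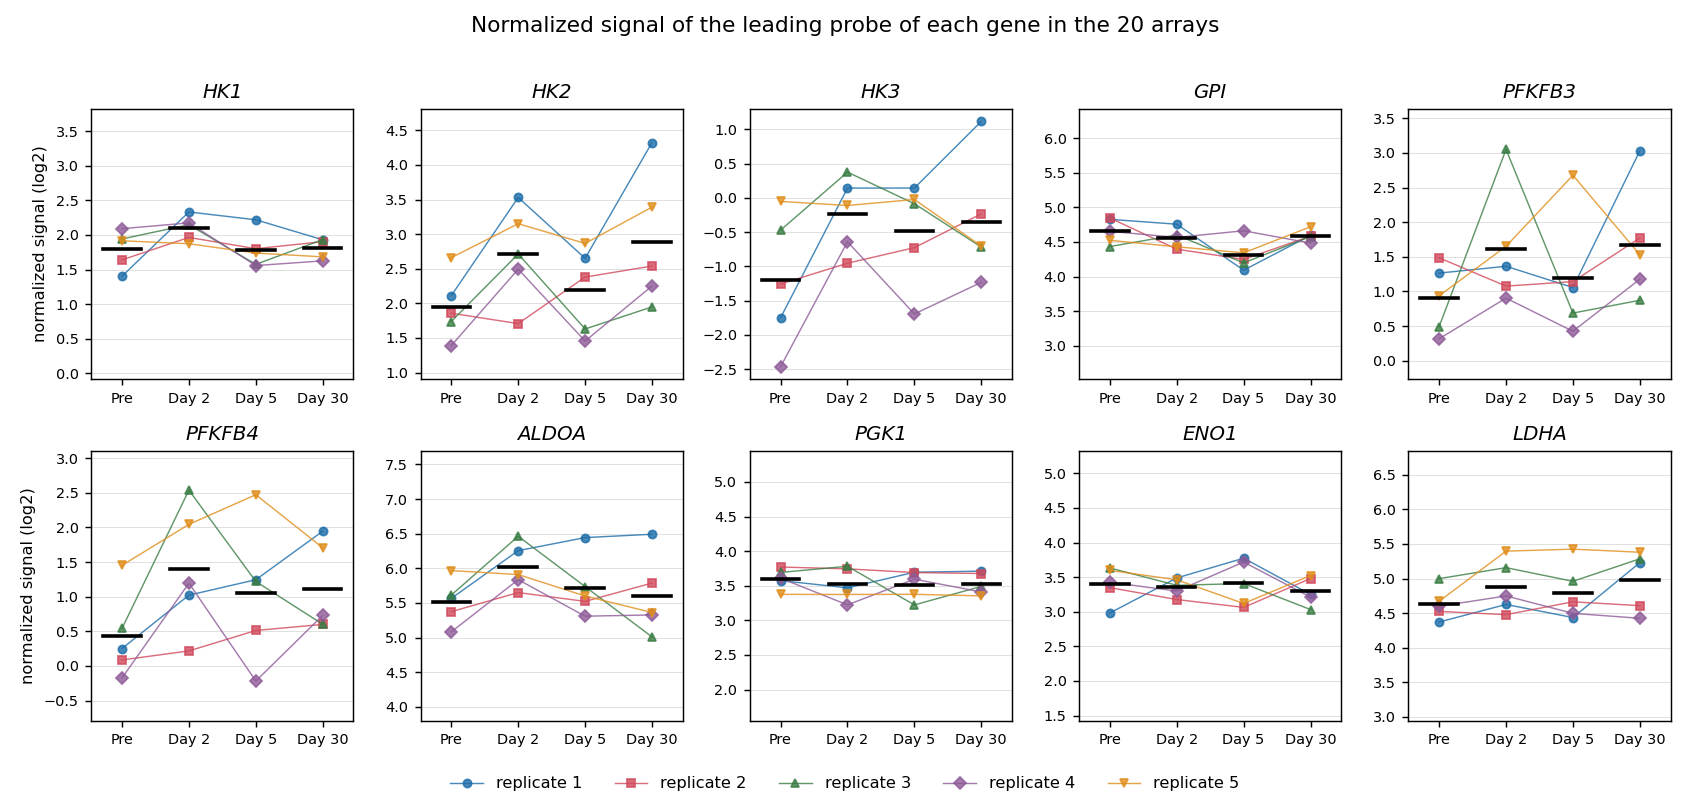
Normalised log2 signal (vertical axis, relative to the 75th percentile of the array) of the leading probe of each of the 10 genes, that with the highest mean signal, in the 4 groups (horizontal axis). Points are arrays, thin lines join arrays of the same replicate number and black bars are group means. The PFKFB4 means were 0.43, 1.40, 1.05 and 1.12 in the 4 groups in that order, while PGK1 lay between 3.22 and 3.78 on all 20 arrays.

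The hexokinases carry out the committed capture of glucose, and HK2 is the isoform known to respond to insulin and HIF. HK2 was higher than before irradiation at Day 2 and Day 30, short of the threshold. Its levels were 2.11, 1.86, 1.74, 1.39 and 2.66 in Pre-irradiation replicates 1 to 5. At Day 2 they were 3.53, 1.71, 2.71, 2.49 and 3.15. Replicate 2 was the only Day 2 array under its own Pre-irradiation value. At Day 5 the levels were 2.65, 2.38, 1.63, 1.46 and 2.87, and at Day 30 they were 4.32, 2.54, 1.95, 2.25 and 3.39. The Day 30 values were above the Pre-irradiation value of the same number in 5 of 5 pairs. The log2 differences were 0.77 at Day 2 (95% interval 0.22 to 1.31, adjusted p = 0.234), 0.24 at Day 5 (-0.12 to 0.61) and 0.94 at Day 30 (0.30 to 1.58, adjusted p = 0.173), or 1.70-fold at Day 2 and 1.92-fold at Day 30. Replicate 1 had the largest Day 30 difference, 2.21, and without that pair the Day 30 difference was 0.62. Without replicate 2 the Day 2 difference was 1.0 with an adjusted p of 0.087, past the threshold. Leaving out that pair, the only lower one, raised the calls over all 19961 probes from 12 to 588. The second HK2 probe was dim, above background on only 11 arrays (2, 4, 2 and 3 by group), and its differences of 0.68, 0.02 and 0.31 had p-values of 0.106 or more.

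HK3, the myeloid hexokinase, had the widest spread of the 13 probes, 3.58 on the log2 scale over the 20 arrays. Its levels were -1.75, -1.26, -0.47, -2.47 and -0.05 in Pre-irradiation replicates 1 to 5. At Day 2 they were 0.14, -0.96, 0.38, -0.64 and -0.11, and at Day 5 they were 0.14, -0.73, -0.09, -1.70 and -0.03. The lowest Pre-irradiation values belonged to replicates 1 and 4, which had the largest increments at Day 2. At Day 30 the levels were 1.12, -0.23, -0.72, -1.24 and -0.71, and replicate 1 stood above the others. HK3 was higher by 0.96 at Day 2 (0.24 to 1.68, 1.95-fold, 4 of 5 pairs, adjusted p = 0.244) and by 0.72 at Day 5 (0.11 to 1.33, 1.65-fold, 5 of 5 pairs, adjusted p = 0.389). At Day 30 the difference was 0.85 (-0.19 to 1.88, 3 of 5 pairs), and it was 0.34 without replicate 1. The Day 5 difference without that pair was 0.43.

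HK1, the hexokinase of red cells and most tissues, kept close to its Pre-irradiation mean of 1.80 ± 0.27 (SD, n = 5). Day 2 had the highest mean, 2.10 ± 0.18, with a difference of 0.30 (-0.12 to 0.71) that was positive in 4 of 5 pairs. At Day 5 and Day 30 the differences were -0.02 (-0.52 to 0.48) and 0.02 (-0.43 to 0.46). All 3 intervals included 0. With normexp the Day 2 difference was -0.03. GPI, which turns glucose-6-phosphate into fructose-6-phosphate, was the member with the largest difference downward. Its means were 4.66 ± 0.18 before irradiation, 4.55 ± 0.15 at Day 2, 4.31 ± 0.22 at Day 5 and 4.59 ± 0.08 at Day 30. The Day 5 difference of -0.35 (-0.73 to 0.03) was negative in 4 of 5 pairs and had an adjusted p of 0.477.

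PFKFB4, which makes and degrades fructose-2,6-bisphosphate, had the smallest Day 2 and Day 5 p-values of the 13 probes. Its levels were 0.25, 0.09, 0.54, -0.18 and 1.45 in Pre-irradiation replicates 1 to 5. At Day 2 they were 1.02, 0.22, 2.54, 1.20 and 2.05, each above the Pre-irradiation array of the same number. The Day 5 levels were 1.25, 0.51, 1.22, -0.22 and 2.47, and those of Day 30 were 1.95, 0.60, 0.60, 0.73 and 1.71. Replicate 4 at Day 5 was the only array of the 15 after irradiation below its Pre-irradiation counterpart. The differences were 0.97 at Day 2 (0.35 to 1.59, 1.96-fold, adjusted p = 0.204), 0.62 at Day 5 (0.17 to 1.06, 1.53-fold, adjusted p = 0.344) and 0.69 at Day 30 (0.11 to 1.26, 1.61-fold, adjusted p = 0.227). The Day 2 difference passed the threshold with the deposited log2 values (1.01, adjusted p = 0.081), where 327 of 5653 probes tested were called. Without replicate 1 the Day 30 difference was 0.43, and without replicate 3 the Day 2 difference was 0.72.

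PFKFB3, the family member whose kinase activity far exceeds its phosphatase activity, gave different days on its 2 probes. The first probe had levels of 1.27, 1.49, 0.49, 0.32 and 0.94 before irradiation. Its Day 2 levels were 1.36, 1.08, 3.05, 0.90 and 1.65, its Day 5 levels 1.06, 1.14, 0.69, 0.42 and 2.68, and its Day 30 levels 3.03, 1.77, 0.87, 1.18 and 1.53. A single array stood high on each day: replicate 3 at Day 2, replicate 5 at Day 5 and replicate 1 at Day 30. The difference at Day 30 was 0.78 (0.23 to 1.33, 1.71-fold, 5 of 5 pairs, adjusted p = 0.179). At Day 2 it was 0.71 (-0.18 to 1.6) and at Day 5 0.30 (-0.40 to 1.0). Leaving out the high array's pair brought these to 0.53, 0.25 and -0.06 in that order.

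The second, splice-spanning PFKFB3 probe printed above had levels of -0.82, -2.10, -1.92, -3.16 and -1.78 before irradiation. They were -0.90, -1.71, -0.23, -1.85 and -1.49 at Day 2, and -0.90, -2.01, -0.55, -1.93 and -0.30 at Day 5. The Day 30 levels were -0.11, -1.61, -2.06, -1.26 and -2.08, and replicates 3 and 5 lay below their Pre-irradiation values. This probe was higher by 0.72 at Day 2 (0.09 to 1.35, adjusted p = 0.289) and by 0.82 at Day 5 (0.18 to 1.46, adjusted p = 0.369), each in 4 of 5 pairs. Its Day 30 difference was 0.53 (-0.17 to 1.24, 3 of 5 pairs), and without replicate 4 it was 0.19. The intervals of the 2 probes overlapped on every day, and the difference between probes was not tested.

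ALDOA splits fructose-1,6-bisphosphate into triose phosphates, and was higher at Day 2 only at the unadjusted level. Its levels were 5.57, 5.37, 5.61, 5.08 and 5.97 before irradiation and 6.26, 5.65, 6.46, 5.84 and 5.91 at Day 2. Replicate 5 alone did not exceed its Pre-irradiation value. At Day 5 the levels were 6.44, 5.52, 5.74, 5.31 and 5.6, and at Day 30 they were 6.49, 5.79, 5.01, 5.33 and 5.36. The Day 2 difference was 0.50 (0.09 to 0.92, 1.42-fold, adjusted p = 0.269), followed by 0.20 (-0.25 to 0.65) at Day 5 and 0.08 (-0.51 to 0.66) at Day 30. Without replicate 1 the Day 30 difference was -0.14.

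PGK1, which makes the first ATP of the pathway, and ENO1, which makes phosphoenolpyruvate, had differences near 0 on each day. PGK1 differed by -0.09 (-0.42 to 0.25), -0.09 (-0.43 to 0.26) and -0.08 (-0.44 to 0.29) at Day 2, Day 5 and Day 30. ENO1 differed by -0.04 (-0.42 to 0.35), 0.02 (-0.47 to 0.51) and -0.10 (-0.52 to 0.33). All 6 intervals included 0. LDHA, which turns pyruvate into lactate, had means of 4.63 ± 0.23, 4.88 ± 0.38, 4.8 ± 0.41 and 4.98 ± 0.44 (SD, n = 5) from Pre-irradiation to Day 30. Its differences were 0.25 (-0.13 to 0.62), 0.16 (-0.23 to 0.56) and 0.35 (-0.11 to 0.82), and that of Day 2 turned to -0.20 with normexp. The second LDHA probe, placed on chromosome 9, differed by 0.42 (-0.07 to 0.91) at Day 2, 0.26 at Day 5 and 0.34 at Day 30.

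**Figure D2:**
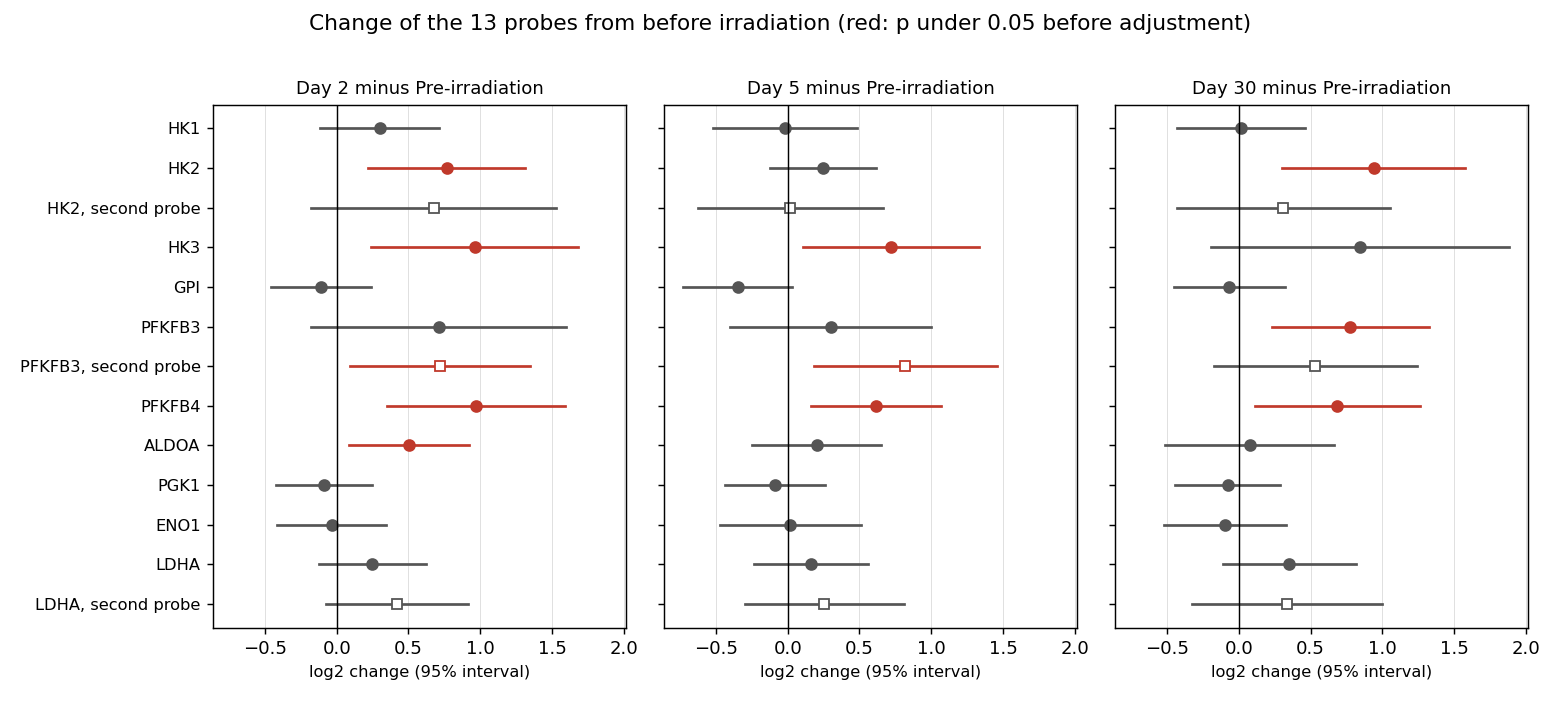
Log2 difference from Pre-irradiation (horizontal axis) of each member probe at Day 2, Day 5 and Day 30, with the limma estimate as a point (open squares for second probes) and its 95% interval as a bar, in red where p was under 0.05 before adjustment. PFKFB4 is the only single probe whose interval lies above 0 on all 3 days, with differences of 0.97, 0.62 and 0.69.

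Most members were lower at Day 5 than at Day 2, short of the threshold. For Day 5 minus Day 2, 11 of the 13 probes were below 0, with a median of -0.24, while 59.7% of all probes were above 0. The direction depended on background correction, since 6 of 13 were below 0 with normexp, with a median of 0.02. For Day 30 minus Day 2, 5 of 13 were above 0 against 50.2% of all probes, and for Day 30 minus Day 5, 10 of 13 against 42.9%, or 7 of 13 in both with normexp. None of the 13 probes was called for Day 5 minus Day 2, Day 30 minus Day 2 or Day 30 minus Day 5, where 0%, 0.0501% and 0% of all probes were called. At p under 0.005 the members gave 0, 0 and 0 probes against 0.276%, 1.45% and 0.681% of all probes. At p under 0.05 they gave 0, 0 and 1 probes against 3.56%, 12.8% and 8.48% of all probes. The 1 probe was the first HK2 probe, which at Day 30 exceeded Day 5 by 0.69 (0.13 to 1.26, 5 of 5 pairs, adjusted p = 0.561). HK1 was lower at Day 5 than at Day 2 in 5 of 5 pairs, with a difference of -0.32, and at Day 30 than at Day 2 in 5 of 5 pairs, with -0.28, and neither had p under 0.05. With normexp the Day 5 minus Day 2 difference of HK1 was 0.02.

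The members varied unevenly across arrays. In each pair the median of the 10 genes' log2 differences was taken, and its mean over 5 pairs was 0.29 ± 0.30 (SD) at Day 2, 0.16 ± 0.29 at Day 5 and 0.26 ± 0.37 at Day 30. It was above 0 in 3, 4 and 5 of the 5 pairs, and with normexp background correction, a model of the background described below, the Day 2 mean was -0.12. Over all probes the median differences were -0.04, 0.03 and -0.02. Day 30 replicate 1 was the highest array of its group for 6 of the 10 genes, and Day 2 replicate 2 was the lowest of its group for 7 of 10. Leaving out each pair in turn moved the mean between 0.21 and 0.37 at Day 2, between 0.03 and 0.22 at Day 5 and between 0.11 and 0.32 at Day 30. Leaving out replicate 3, whose Day 5 array had the most spots above background, gave Day 5 differences of 0.60 for PFKFB4, 0.81 for HK3 and 0.68 for the second PFKFB3 probe.

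The rest of the pathway showed which neighbours of the members had like differences. Across 91 further genes of glucose metabolism and HIF signalling, of which 80 were tested, none was called on any day. At p under 0.005, where 1.9%, 1.26% and 1.13% of all probes were higher, 3 were higher at Day 2, 1 at Day 5 and 3 at Day 30. None was lower, where 131, 63 and 400 of all 19961 probes were. At p under 0.05, 13, 7 and 12 of the 80 were higher and 5, 3 and 4 were lower. Of all probes 8.47%, 7.35% and 7.43% were higher at that level and 6.55%, 3.82% and 10.1% lower. The median differences of the 80 genes were 0.07, 0.07 and 0.19.

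Other genes for the glycolytic steps had medians near or below 0. Among 8 other genes of the upper steps, from hexokinase to aldolase, the median differences were 0.01 at Day 2, -0.01 at Day 5 and -0.26 at Day 30. Of these 8 genes 4 were higher at Day 2, 4 at Day 5 and 1 at Day 30. Their highest differences were 0.51, 0.33 and 0.30. At p under 0.05, 1 was higher and 2 lower at Day 2, 1 lower at Day 5 and 2 lower at Day 30. The brain-type aldolase ALDOC had -0.50 at Day 2 (adjusted p = 0.24) and -0.64 at Day 30 (adjusted p = 0.20). The muscle phosphofructokinase PFKM had -0.34 at Day 2 and -0.37 at Day 5, below the Pre-irradiation value in 5 of 5 pairs on both days. Among the 8 genes tested of the lower steps the medians were -0.11, 0.01 and -0.04, and none had p under 0.05. In that list GAPDH, the dehydrogenase between aldolase and PGK1, differed by 0.19, 0.06 and 0.04, and the pyruvate kinase PKM by -0.19, -0.14 and -0.27. LDHB, the subunit that favours lactate use, differed by -0.11, -0.23 and 0.02.

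The remaining genes of fructose bisphosphate control were mostly higher, as the PFKFB members were, with medians of 0.43, 0.36 and 0.51 over 5 genes. At Day 2, 1 gene was lower, at -0.28, and at Day 30, 1 was lower, at -0.48. The highest differences were 1.10, 0.73 and 1.08. TIGAR, which removes fructose-2,6-bisphosphate, was higher by 0.53 ± 0.21 (SE) at Day 2 (adjusted p = 0.31). PFKFB2, known as the heart isoform, was higher by 0.48 ± 0.20 at Day 30 (adjusted p = 0.27). FBP2, a muscle fructose-1,6-bisphosphatase that was above background on 11 arrays, had 0.92 ± 0.17 at Day 30 (adjusted p = 0.13).

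For glucose and lactate transport the medians over 9 genes were 0.16, 0.17 and 0.27, and 4, 1 and 2 of the 9 were lower. The lowest differences were -0.53, -0.38 and -0.89, and 1 gene was lower with p under 0.05 at Day 2 and 1 at Day 30. SLC16A3, the lactate exporter of glycolytic cells, was higher by 0.88, 0.57 and 0.73, with an adjusted p of 0.29 at Day 5. The glucose transporters SLC2A3 and SLC2A14, whose near-identical sequences make their separate values uncertain, differed by 0.87 and 0.92 at Day 30. In the pentose phosphate pathway, the branch from glucose-6-phosphate that yields NADPH, the medians over 8 genes were 0.59, 0.29 and 0.46. In this list 4 genes had p under 0.05 at Day 2, among them PGD, TKT and TALDO1 with 0.98, 0.71 and 0.54. The number was 1 at Day 5 and 0 at Day 30. In glycogen metabolism the muscle phosphorylase PYGM was higher by 1.12 ± 0.28 at Day 2 (adjusted p = 0.19), and the 10-gene medians were 0.17, 0.05 and 0.36.

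Of the enzymes that steer pyruvate into mitochondria, 11 were tested, with medians of -0.21, -0.13 and -0.02. On the 3 days 8, 7 and 6 of them were lower, with lowest differences of -0.67, -0.52 and -0.45. At p under 0.05, 2, 1 and 1 were lower and 1, 0 and 1 higher. PDK4, which inactivates pyruvate dehydrogenase, was higher by 1.20 ± 0.23 at Day 30 in 5 of 5 pairs (adjusted p = 0.13). The 7 HIF pathway genes tested had medians of 0.13, 0.09 and 0.15, with 3, 2 and 3 of them lower and lowest differences of -0.33, -0.12 and -0.44. Among them EPAS1, which encodes HIF-2 alpha, was higher by 1.24 ± 0.30 at Day 2 (adjusted p = 0.18). HIF1A was higher by 0.99 ± 0.31 at Day 30 (adjusted p = 0.18) and differed by -0.05 at Day 5. ADM, a HIF target outside glycolysis that encodes a vasodilator peptide, was higher by 0.91 ± 0.17 at Day 2 (adjusted p = 0.14). The 11 HIF targets outside glycolysis had medians of 0.09, 0.07 and 0.27.

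**Figure D3:**
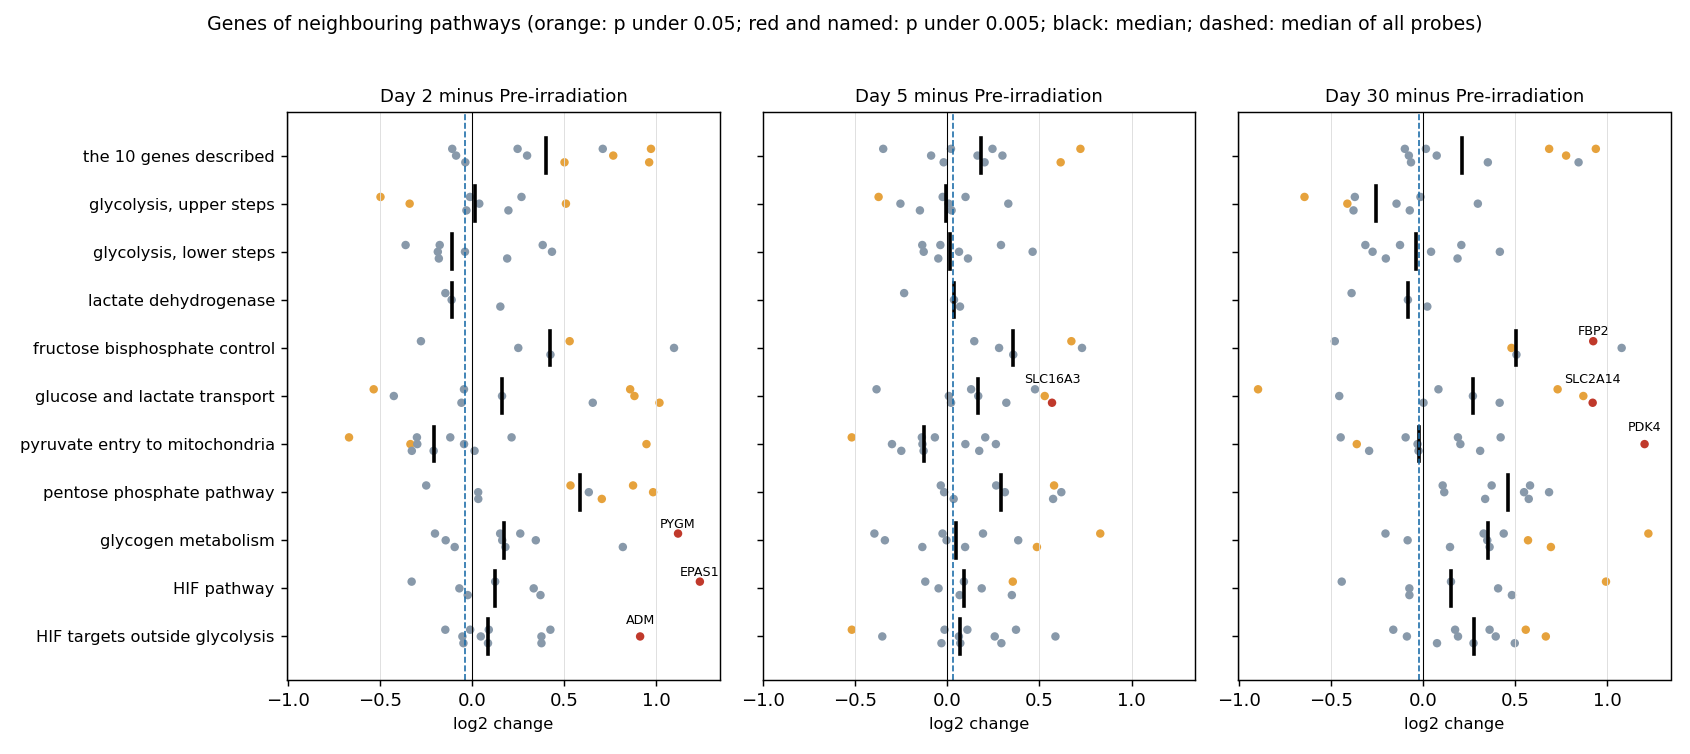
Log2 differences from Pre-irradiation (horizontal axis) of the tested genes in each pathway list at Day 2, Day 5 and Day 30, with 1 point per gene, a black bar at the list median and a dashed line at the median of all probes. Orange points have p under 0.05 and red, named points p under 0.005. The pentose phosphate list had medians of 0.59, 0.29 and 0.46, while the lower steps of glycolysis had -0.11, 0.01 and -0.04.

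Blood-cell markers differed between the groups as well, and in whole blood fewer cells of a type and less RNA per cell cannot be told apart. All 11 neutrophil markers tested were higher on each of the 3 days, with medians of 1.0, 0.64 and 0.95 and p under 0.05 for 7, 8 and 7. Their mean level per array ran from 0.59 to 3.07 before irradiation, from 2.15 to 4.04 at Day 2, from 2.06 to 3.53 at Day 5 and from 2.2 to 4.66 at Day 30. The listed markers with no tested probe were FCGR3B of neutrophils, LYZ of monocytes, GP1BA of platelets, MS4A1 and PAX5 of B cells, HBA1 and GYPB of erythroid cells and SIGLEC8 of eosinophils. The 7 monocyte markers tested were also higher on each day, with medians of 0.63, 0.41 and 0.73, and mean levels of 2.90 to 4.40 before irradiation, 4.06 to 4.77 at Day 2, 2.98 to 4.72 at Day 5 and 4.02 to 4.75 at Day 30. The 8 platelet markers were higher at Day 2 with a median of 1.46, all with p under 0.05, and had medians of 0.46 at Day 5 and -0.25 at Day 30.

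Lymphocyte markers differed in the other direction. The 8 T cell markers had medians of -0.48, -0.24 and -0.44, and the 5 B cell markers tested had -0.58, -0.49 and -0.45. The 8 NK cell markers had -1.37, -0.74 and 0.08. Erythroid markers had medians of -0.11, 0.14 and -0.77 over 8 genes, and basophil and eosinophil markers had 0.04, -0.17 and -0.34 over 5. Members with higher values at Day 2 and Day 30, such as HK2, HK3 and PFKFB4, were thus measured in samples whose neutrophil and monocyte markers were higher too, and the part of these markers in the members' differences was not tested.

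**Figure D4:**
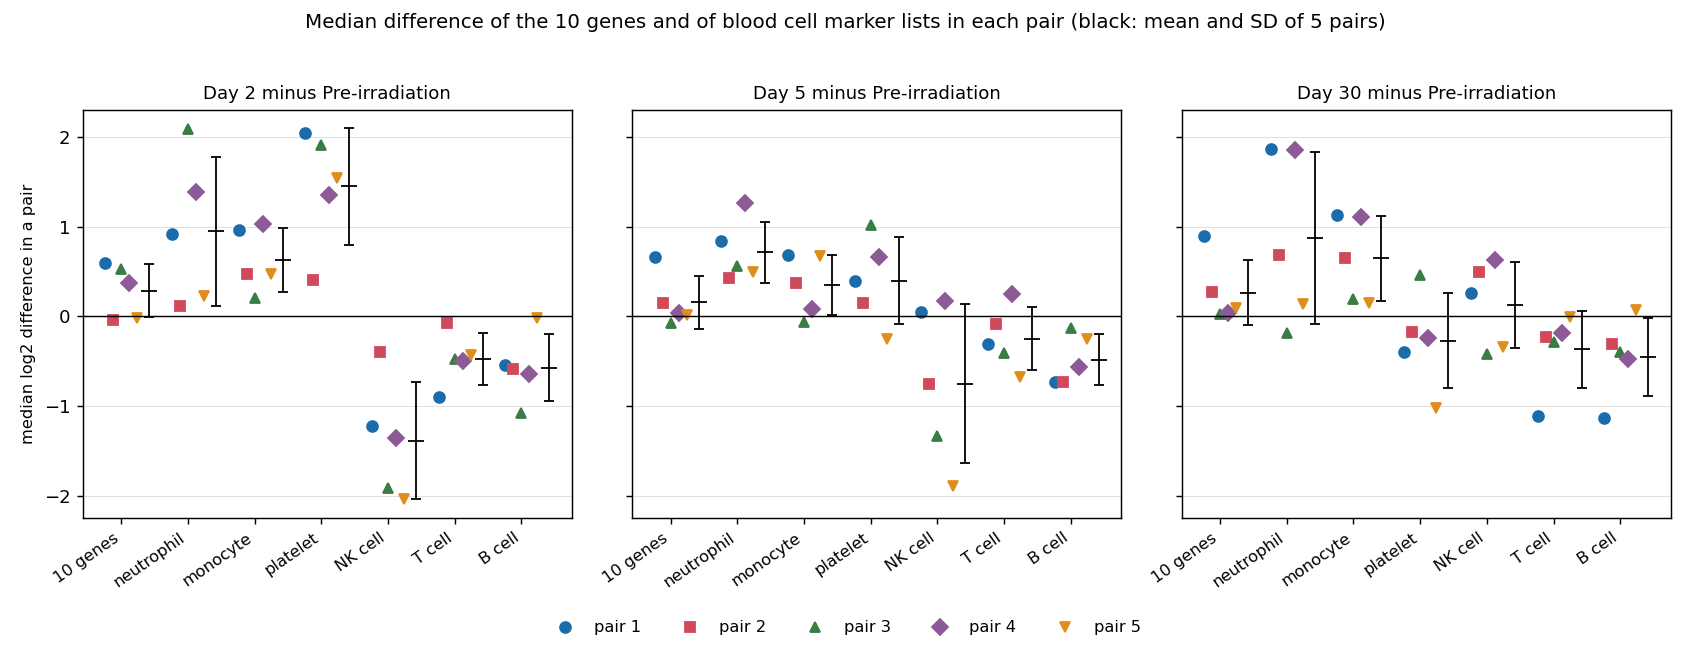
Median log2 difference from Pre-irradiation (vertical axis) in each of the 5 pairs for the 10 genes and for 6 blood-cell marker lists at Day 2, Day 5 and Day 30, with black bars for the mean and SD of the pairs. The means were 0.29, 0.16 and 0.26 for the 10 genes and 0.95, 0.71 and 0.87 for the neutrophil markers.

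The size of the members' differences depended on background correction. With the normexp method, which models background instead of using the processed signal of the scanner software, PFKFB4, HK3 and HK2 were higher at Day 2 relative to the median of all probes by 0.47, 0.37 and 0.16. Only 6 of 13 probes then lay above that median, and GPI, PGK1 and ENO1 stood at -0.66, -0.65 and -0.59 from it. That method itself moved the median of all probes at Day 2 by 0.21, from -0.04 to 0.17. With it the Day 30 differences of HK2 (0.75, adjusted p = 0.086) and of the first PFKFB3 probe (0.63, adjusted p = 0.074) passed the threshold. At Day 30 that method called 967 of all 19961 probes, against 0 in the analysis as reported. The Day 2 differences of HK2, HK3, PFKFB4, ALDOA and the second PFKFB3 probe stayed above 0 under every alternative tried. So did those of the first PFKFB3 probe and of the second HK2 and second LDHA probes, the last with a lowest value of 0.03. ALDOA with normexp, at 0.04, lay below the median of all probes with that method, 0.17.

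**Figure D5:**
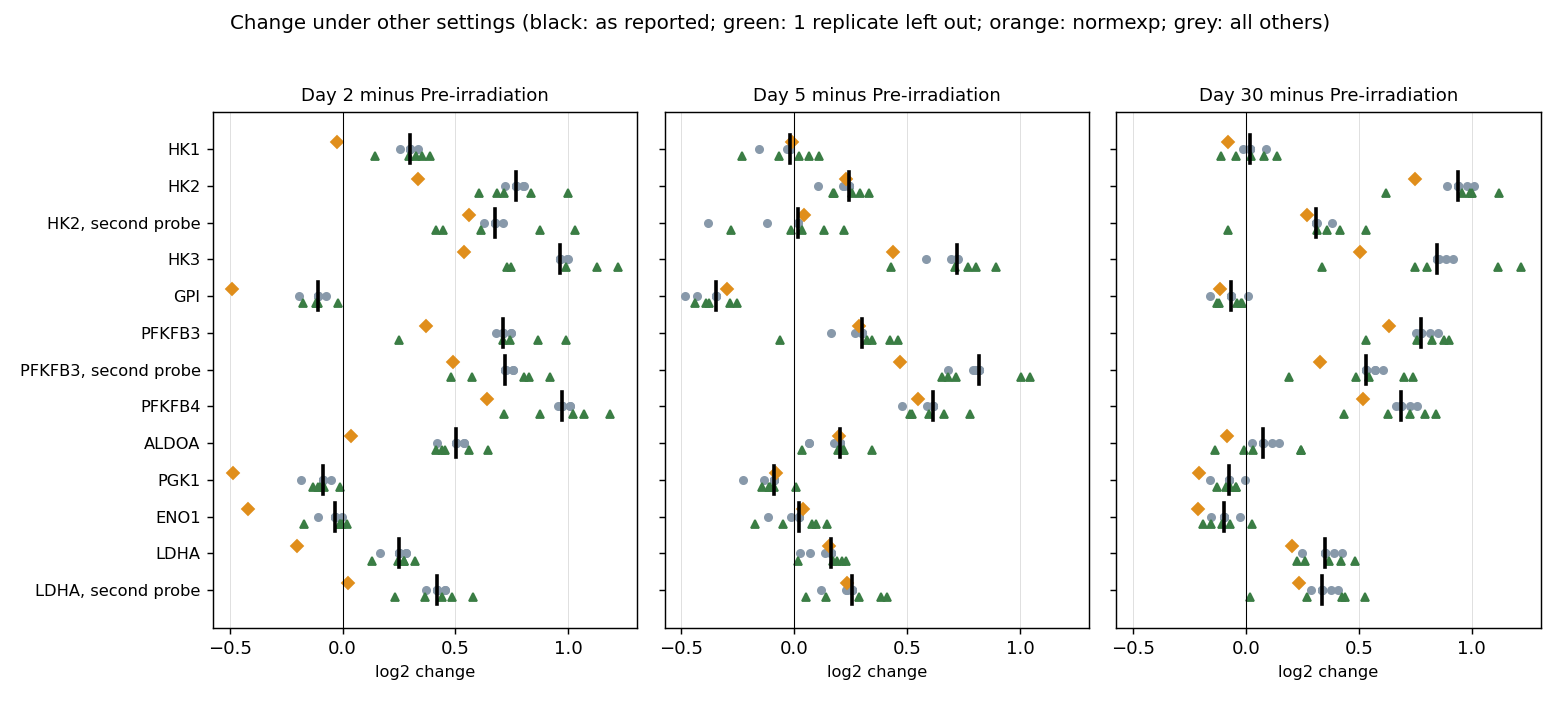
Log2 differences from Pre-irradiation (horizontal axis) of the member probes under each alternative processing. Black bars are the values as reported, green triangles leave out 1 replicate, orange diamonds are normexp and grey points all others. ALDOA at Day 2 ranged down to 0.04 with normexp, where the median of all probes was 0.17. PFKFB4 stayed above 0 in every setting on all 3 days, as did HK3, the first HK2 probe and the second PFKFB3 and LDHA probes.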

How the data were processed

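The authors extracted RNA from PAXgene whole blood, depleted globin transcripts and kept samples of high RNA integrity. They hybridised Cy3-labelled RNA to 1-colour Agilent human arrays and read them with Feature Extraction (12.0.2.2 in the file headers, 10.7 in the processing notes). Each deposited array file holds the processed signal intensity of every spot, background-corrected by that software, and the deposited series table holds log2 values. At least 96.9% of these on each array lay within 0.001 of log2 of the processed intensity plus a constant, and the table was used only as an alternative. It held 8 of the 13 member probes.

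Here log2 intensities were taken relative to the 75th percentile of each array's non-control spots. Control spots and spots with outlier flags were left out, and spots of a probe were averaged. Of 34127 probes, those detected above background by the software on 5 arrays or more, with values in at least 4 pairs, were tested (19961) with limma 3.58.1 in R 4.3.3 (Python 3.11.15 for summaries), 1 comparison at a time, blocked on replicate number, and p-values were adjusted by Benjamini-Hochberg over all of them. Calls needed p under 0.005 and a false discovery rate under 10%. All p-values are two-sided limma values. The fit was tested on a simulated Day 2 comparison with 100 probes changed by 1 and 100 by 2 on the log2 scale. Of these, 69 and 99 were called, and 32 unchanged probes were called too, a larger share of the calls than the 10% limit. The simulated noise was normal and independent between probes, so these shares need not hold for the real arrays.

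Pairing rests on the study's methods, since the labels tie no number to an animal. Deviations from the group mean correlated above 0.1 in 25 of 30 same-numbered array pairs (median 0.28) and in 25 of 120 others (median -0.07).

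Every tested member probe is named, and from the other lists the genes with p under 0.005 and otherwise up to 2 of the largest differences per list. ALDOC, PFKM, GAPDH, PKM, LDHB, TIGAR, PFKFB2, SLC2A3, PGD, TKT, TALDO1 and HIF1A were added for their place in the pathway after values were seen. The members and lists were chosen with earlier results of these data known. Alternatives covered normalisation, background correction, filter, deposited values, block, slide, arrays in the fit, outlier flags, the prior on the spread and each replicate left out. All 10 symbols match rhesus gene names in the RefSeq table given for the species. Mismatches between human probes and macaque transcripts were not examined here.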

Additional observations from a re-analysis of the deposited data

How the results depend on the processing

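No member probe was called in the analysis as reported. Of 1212 member values under an alternative, 1208 stayed uncalled and 4, given in the report, were called: HK2 at Day 2 without replicate 2, PFKFB4 at Day 2 with the deposited values, and HK2 and the first PFKFB3 probe at Day 30 with normexp.

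Calls over all probes depended on the setting far more. At Day 2, 12 probes were called. The number was 0 with quantile normalisation, normexp, no filter or no replicate block, 1 with slide as a block, 190 with probes above background on all 20 arrays, 200 with an intensity trend, 327 with the deposited values and 343 with all 20 arrays in 1 fit. It ran from 0 to 588 with each replicate left out, the highest without replicate 2. At Day 5 the count was 0, and 9 with median scaling. At Day 30 the count was 0, and 967 with normexp, 695 with the all-array filter, 334 with the deposited values, 121 with all arrays and 451 with an intensity trend. For Day 30 minus Day 2 the count was 10, with 0 for no filter or slide, 26 for the all-array filter, 57 for the deposited values, 4 with no replicate block, 164 for all arrays, and 0 to 66 with each replicate left out. For Day 30 minus Day 5 it was 0, and 0 to 2 with each replicate left out.

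The mean over pairs of the members' median difference was 0.29 at Day 2, -0.12 with normexp and 0.67 with the deposited values, which hold 6 of the 10 leading probes. At Day 30 it was 0.26, and 0.76 with the deposited values. Normexp moved the median of all probes by 0.21 at Day 2 and 0.13 at Day 30, and median scaling moved it by -0.14 at Day 5. Member probes with p under 0.05 numbered 5 at Day 2 (3 with slide as a block, 2 to 8 with a replicate left out), 3 at Day 5 (1 with median scaling, 0 with no replicate block, 0 with slide) and 3 at Day 30 (1 with no replicate block, 0 with slide). Slide replaced the replicate number in that fit. Apart from the fewer or other samples and probes that some settings use, the cause was not tested. Removing the block changed no member's call. The number of arrays limits precision, and the second HK2 probe was above background on only 11 arrays.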
